A study of Mus musculus with 12 samples.

Results

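The change shared by both culture arms after day 0 was followed in mouse embryonic stem (ES) cells, as the difference between the 8 arrays of days 3 and 10 and the 4 arrays of day 0. All 12 arrays of the series entered this comparison. RNA came from the reporter lines Stella-GFP and Dazl-GFP, named for Stella, the protein of Dppa3, and for Dazl, both known from germ cells. Each line was hybridised once per arm and day. The FBS arm is labelled as grown in DMEM with 15% fetal bovine serum. The other arm, called BN in the sample titles and 2i condition in the labels, is taken here as the serum-free B27N2 medium of the protocol and is written as serum-free. All groups shared leukemia inhibitory factor (LIF) and γ-irradiated feeder fibroblasts from mouse embryos. The inhibitors given for the 2i experiments were PD0325901 against MEK at 1 µM and Kenpaullone against GSK3β at 5 µM. The labels leave unsaid whether the FBS arm got inhibitors after day 0 and what the serum-free cells had been given by day 0. Time in culture and treatment cannot be told apart in this comparison, since all 8 later arrays differ from day 0 in time and the labels name no later array as untreated.

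A probe was called where the limma fit with arm and line as blocks passed an adjusted p of 0.05 over all 41174 probes, and the change had the same sign in all 4 combinations of arm and line. Of 27677 genes on the array, each read by its brightest probe, 1105 were called higher (3.99%) and 1013 lower (3.66%). These 2118 genes make up the shared response. Probe names that matched no reference gene count as genes here. Of the called genes 791 had several probes. Every probe was called alike in 242 of these, and 3 had a probe of the opposite call. Without the condition on signs 2135 genes passed (7.71%), and 8302 genes had the same sign in all 4 combinations with no test (30.0%). The 8 later arrays lay above all 4 day 0 arrays in 761 genes (2.75%) and below them in 647 (2.34%), called or not, and 1125 of the called genes did not overlap between the groups. By at least 2-fold, 537 were higher and 674 lower. Levels are log2 signals over the 75th percentile of the same array, and changes are log2 differences of these levels. The median change over all genes was 0.113, against which changes are read. Day 0 levels are given in the order FBS Stella-GFP, FBS Dazl-GFP, serum-free Stella-GFP and serum-free Dazl-GFP.

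ES cells can hold different states of pluripotency. MEK passes signals of fibroblast growth factor (FGF) to the kinase ERK, which switches on genes such as the Sprouty and Dusp inhibitors that act back on the pathway and favours the exit from the naive state. GSK3 marks beta-catenin for destruction, and blocking it releases Wnt target genes. Inhibiting both kinases together with LIF is known to keep mouse ES cells in a naive state with high Klf2, Klf4, Tbx3 and Nanog and low de novo DNA methyltransferases.

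On the 12 arrays 64% to 74.4% of spots were well above background, the 75th percentile lay at 454 to 947 intensity units, and precision is limited by the number of arrays. The labels do not say that the arrays came from separate cultures, so p-values cover the scatter among these arrays and no more. All 8 ES cell markers (Pou5f1, Sox2, Nanog, Sall4, Zfp42, Dppa5a, Utf1 and Tdgf1) were well above background on every array, and so were all 22 fibroblast markers. The summed fibroblast signal, in units of the 75th percentile, was 67.8 to 73.03 in the FBS arm and 62.77 to 70.38 in the serum-free arm at day 0. At days 3 and 10 it was 69.46 to 151 in the FBS arm and 42.69 to 74.12 in the serum-free arm, so it did not move one way in both arms. Macrophage markers summed to 3.314 to 9.542 at day 0 and 2.202 to 10.51 later. In such bulk samples fewer cells of a type and less RNA per cell cannot be told apart.

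The counts of called probes depended on the arrays of day 0. Over all probes, 1605 were higher (3.90%) and 1475 lower (3.58%), against 655 and 751 without the FBS Stella-GFP array of day 0. Without the serum-free Dazl-GFP array of day 0 the counts were 675 and 675, and without the serum-free Stella-GFP array of day 0 they were 1003 and 863. Without the FBS Dazl-GFP array of day 0, 1099 were higher and 963 lower. With the slide as a further block 620 were higher and 740 lower. Of the 96 called genes named by the rule, 57 kept their call without each array in turn, and each loss among the other 39 is given with the gene. With the 4 pairs of arm and line as blocks, 10 lost their call by a small margin (adjusted p between 0.0504 and 0.0649), namely Mmp3, Dnmt3b, Fgf5, Pou3f1, Ccl2, Cxcl12, Fn1, Utf1, Pfkp and Ctsb. With the slide as a block 31 did (adjusted p between 0.0525 and 0.165), namely those 10 and Trpm1, Rec114, Smad7, Gadd45b, Dnmt3l, Dnmt3a, Klf4, Il6st, E2f1, Mmp2, Lin28a, Nanog, Tfap2c, Pdk1, Hk1, Ifit2, Mcoln1, Fabp7, Amn, Gata3 and Tet3. With normexp background correction as planned 31 of the 96 kept their call. The values of the leading genes reported here that did not are given with them. With 10 outlying local backgrounds repaired, a setting chosen after the data were seen, 92 of the 96 kept their call. The 4 that lost it were Olr1 (-0.42, adjusted p = 0.212), Ankrd1 (-0.43, adjusted p = 0.139), Ifit2 (-0.32, adjusted p = 0.255) and Fabp7 (-0.60, adjusted p = 0.23).

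The largest rise was that of Cyp1a1, which encodes a cytochrome P450 and is a classic target of the aryl hydrocarbon receptor, a ligand-activated transcription factor. That receptor pairs with ARNT and binds DNA at the core letters GCGTG. RefSeq promoter windows (GRCm38.p6, 250 bases before to 50 bases after the start) are shown for the 2 receptor targets that rose, Cyp1a1 and Nqo1, and for Tiparp, a target that did not pass. The letters searched were GCGTG on both strands, in capitals where found (CACGC is the same core on the opposite strand). Cyp1a1 lies at chr9:57697363-57697662 on the plus strand, Nqo1 at chr8:107403156-107403455 on the minus strand and Tiparp at chr3:65528197-65528496 on the plus strand.
Cyp1a1: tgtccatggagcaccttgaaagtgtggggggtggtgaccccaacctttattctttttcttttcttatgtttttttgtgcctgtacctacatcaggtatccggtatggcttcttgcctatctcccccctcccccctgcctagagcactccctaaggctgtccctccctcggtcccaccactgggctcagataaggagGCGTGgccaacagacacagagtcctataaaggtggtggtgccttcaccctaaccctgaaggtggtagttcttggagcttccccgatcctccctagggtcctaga
Nqo1: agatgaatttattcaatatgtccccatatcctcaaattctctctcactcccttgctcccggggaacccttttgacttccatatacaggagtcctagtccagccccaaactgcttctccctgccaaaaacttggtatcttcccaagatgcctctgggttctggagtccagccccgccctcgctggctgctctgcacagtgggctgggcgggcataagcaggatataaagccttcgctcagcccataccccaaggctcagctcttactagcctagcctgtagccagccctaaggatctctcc
Tiparp: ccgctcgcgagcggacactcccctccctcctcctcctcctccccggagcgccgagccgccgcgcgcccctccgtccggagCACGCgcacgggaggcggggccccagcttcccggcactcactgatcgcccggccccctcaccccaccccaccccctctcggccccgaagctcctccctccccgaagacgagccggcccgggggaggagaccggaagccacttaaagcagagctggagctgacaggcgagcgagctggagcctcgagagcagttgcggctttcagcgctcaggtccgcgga
The letters begin 54 bases before the start of Cyp1a1 and 170 bases before that of Tiparp, and they are not in the Nqo1 window. Whether the receptor binds at these places was not measured, and stretches outside the windows were not searched. The letters are common: 8772 of 27025 genes with a window hold them on either strand (32.5%). So do 293 of 619 called higher (47.3%) and 336 of 718 called lower (46.8%), beside 41.8% of all genes on the array with a window.

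Cyp1a1 was at -5.84, -7.63, -6.65 and -7.55 at day 0, not well above background on any of the 4 arrays. On the 8 later arrays it lay between -2.87 and 0.06, median -1.41. Every later array was far above every day 0 array, and the gene was at least 24.8-fold higher (fitted log2 change 5.56, SE 0.46, adjusted p = 0.000271). That bound sets the mean of the later arrays against day 0 signals raised to the lowest signal well above background on each array. With normexp background correction as planned the change of Cyp1a1 was 1.68 and not called (adjusted p = 0.191), and with outlying local backgrounds repaired it was 2.46 and called (adjusted p = 4.2e-06). The rise was 6.07 within slide 1 (FBS Dazl-GFP) and 5.42 within slide 3 (serum-free Stella-GFP), and 5.52 at day 3 and 5.60 at day 10. Nqo1, a quinone reductase that is a target of both this receptor and the antioxidant factor NRF2, went from 1.17, 1.15, 2.00 and 2.69 to between 2.73 and 3.28, median 3.01 (log2 change 1.28, SE 0.23, adjusted p = 0.00916). Here too the groups did not overlap, and with normexp as planned the change of Nqo1 was 1.33 (adjusted p = 0.0581). Of the 8 receptor targets on the array these 2 were called higher and none lower (backgrounds 3.99% and 3.66%). The other 6 did not pass. Cyp1b1 changed by 1.18 (adjusted p = 0.0588), Ahrr, the receptor's own repressor, by 0.43, Cyp1a2 by 0.40 and Tiparp by 0.12, while Lrat and Aldh3a1 were not well above background on any array. The list's median was 0.447. The 2 other antioxidant genes called, Gclm of glutathione synthesis (-0.82, adjusted p = 0.00911) and Gpx2, a glutathione peroxidase (-1.37, adjusted p = 0.00923), were lower, out of 10 on that list.

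**Figure D1:**
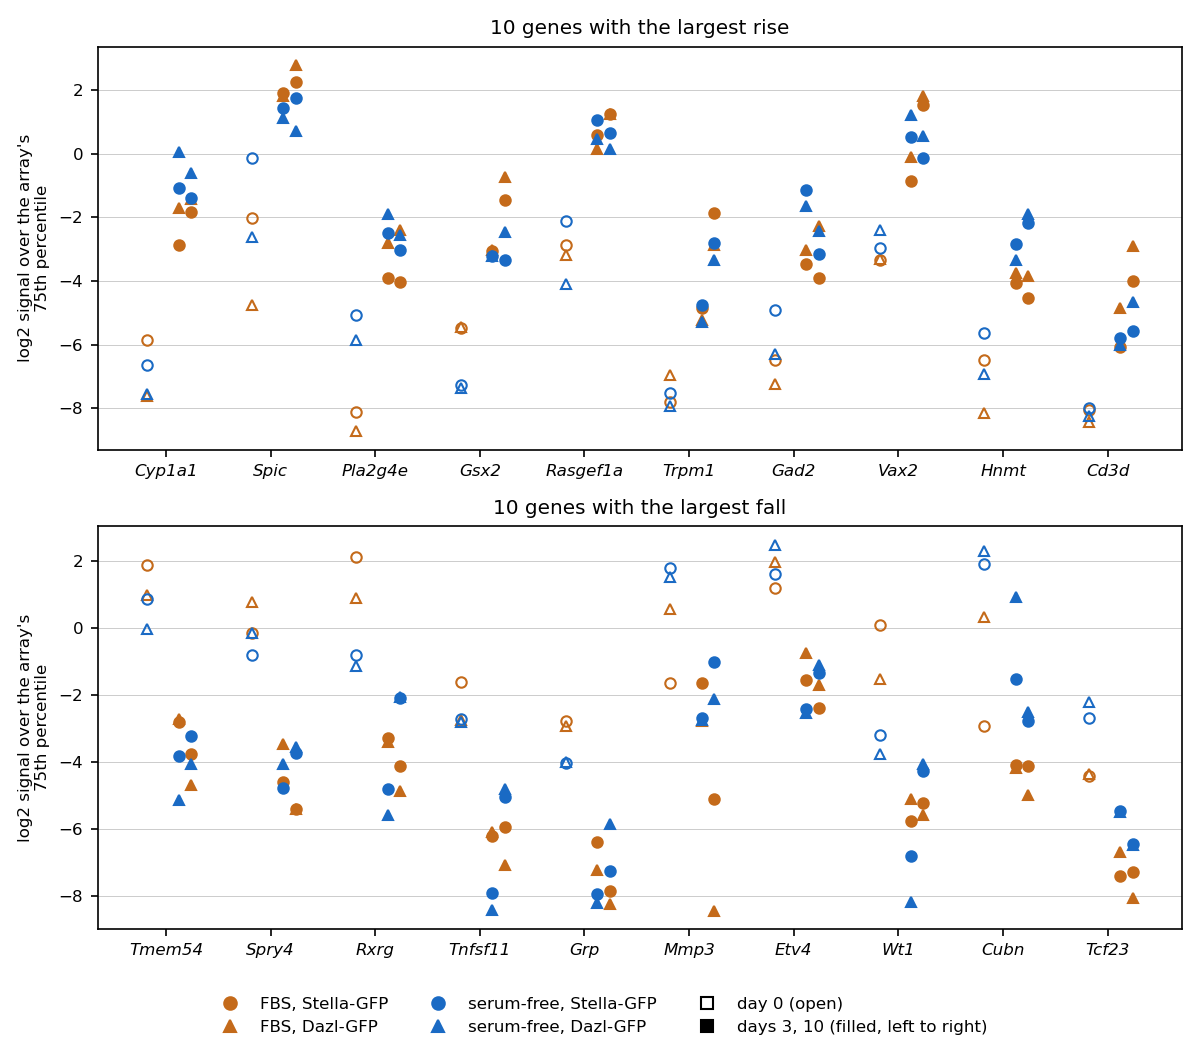
Levels of the 10 genes with the largest rise (top) and the 10 with the largest fall (bottom) on each of the 12 arrays, as log2 signal over the array's 75th percentile, with day 0 as open symbols and days 3 and 10 as filled symbols from left to right. Cyp1a1 lay between -7.63 and -5.84 at day 0 and between -2.87 and 0.06 later.

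After Cyp1a1 the largest rises were those of genes with different roles. Spic, an Ets family transcription factor known from macrophages and the naive state of ES cells, went from -2.01, -4.75, -0.14 and -2.63 to between 0.73 and 2.79, median 1.79 (log2 change 4.11, SE 0.61, adjusted p = 0.00327). Rasgef1a, an exchange factor for Ras-like GTPases, went from -2.86, -3.17, -2.10 and -4.08 to between 0.14 and 1.27, median 0.61 (log2 change 3.75, SE 0.29, adjusted p = 0.00025). For both genes all 8 later arrays were above all 4 day 0 arrays, and for Spic the FBS Dazl-GFP array was the lowest and the serum-free Stella-GFP array the highest at day 0. The homeobox genes Gsx2 (log2 change 3.82, SE 0.42, adjusted p = 0.000994) and Vax2 (log2 change 3.57, SE 0.45, adjusted p = 0.00166), which pattern the forebrain and eye, rose as well. Gsx2 was at -5.46, -5.45, -7.26 and -7.37 at day 0 and between -3.34 and -0.74 (median -3.04) later, with the serum-free arrays the lower ones at day 0. Gad2, which makes the transmitter GABA, rose by 3.61 (adjusted p = 0.0014), and the phospholipases Pla2g4e and Pla1a by 4.06 and 3.13 (adjusted p at most 0.00294 for both). At day 0 Gsx2 and Pla2g4e were well above background on 2 of 4 arrays and Gad2 on 1. With normexp as planned the changes of Gsx2 (0.75), Gad2 (0.75) and Pla2g4e (0.67), each at an adjusted p of 0.527, and of Pla1a (2.51, adjusted p = 0.0616) did not pass.

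Several of the leading genes had no signal well above background on any day 0 array, so their folds are lower bounds. The histamine-degrading enzyme gene Hnmt was at least 6.61-fold higher (adjusted p = 0.000756), the channel gene Trpm1 at least 4.46-fold (adjusted p = 0.00746), Ffar2, a receptor for short fatty acids, at least 2.14-fold (adjusted p = 0.0259) and Cd3d, a chain of the T cell receptor complex, at least 2.07-fold (adjusted p = 0.00412). Cd3d was at -8.05, -8.43, -7.99 and -8.26 at day 0 and between -6.07 and -2.91 (median -5.21) later, and it was well above background on 7 of the 8 later arrays, while Ffar2 was on 6. With normexp background correction as planned, Cd3d and Ffar2 turned to -0.07 and -0.14, and Hnmt (0.27), Trpm1 (0.25), Nlrp4a (0.56), Cadps2 (0.57), Cdhr1 (1.76), Adgrg6 (0.87), Rec114 (1.84) and Prickle2 (1.47) did not pass. Without the FBS Dazl-GFP array of day 0 (adjusted p = 0.0934), the FBS Stella-GFP array of day 0 (adjusted p = 0.0907) or the serum-free Dazl-GFP array of day 0 (adjusted p = 0.0592), Ffar2 was no longer called. The remaining leading rises were Nlrp4a (2.89), an oocyte gene of the NLR family, Cadps2 (2.85) of vesicle release, the cadherin gene Cdhr1 (2.83), the water channel gene Aqp3 (2.78), the adhesion receptor gene Adgrg6 (2.53), Rec114 of meiotic recombination (2.52) and Prickle2 of planar cell polarity (2.52). Aqp3 went from 1.92, 0.28, 0.19 and -1.30 to between 1.11 and 4.46, median 3.25, and its groups overlapped. The call of Rec114 did not hold without the FBS Dazl-GFP array of day 0 (adjusted p = 0.0537). At day 0 Nlrp4a and Cadps2 were well above background on 3 of 4 arrays. A second, dim probe of Cadps2 gave -0.05, one of Pla2g4e 0.07, one of Trpm1 0.20 and one of Adgrg6 0.89, none passing.

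The largest fall was that of Tmem54, which encodes a membrane protein. It went from 1.90, 0.98, 0.88 and -0.01 at day 0 to between -5.14 and -2.72 (median -3.79) later, 26.2-fold lower (log2 change -4.71, SE 0.36, adjusted p = 0.00025), with a change of -4.68 within slide 1 and -4.40 within slide 3. No later array reached the lowest day 0 array. Rxrg, a nuclear retinoid receptor, changed by -4.05 (adjusted p = 0.0101), Tnfsf11, the cytokine RANKL, by -3.97 (adjusted p = 0.00484) and Wt1, a zinc finger factor of kidney and gonad, by -3.53 (adjusted p = 0.0177). Wt1 was at 0.11, -1.52, -3.17 and -3.76 at day 0 and between -8.17 and -4.06 (median -5.40) later, so the FBS arm began higher, and the groups were apart by a small gap between serum-free arrays. Of the 8 later arrays 7 were well above background for Wt1, and 2 were for Tnfsf11. Wt1 lost its call without the FBS Stella-GFP array of day 0 (adjusted p = 0.0828) or the FBS Dazl-GFP array of day 0 (adjusted p = 0.0588). The peptide hormone gene Grp was at least 5.28-fold lower (adjusted p = 0.00153), Prom2, a membrane protein related to prominin, at least 4.43-fold (adjusted p = 0.00218) and Olr1, a scavenger receptor, at least 2.71-fold (adjusted p = 0.00969), each with no signal well above background on any later array. With normexp as planned Grp (-1.23), Prom2 (-1.11), Olr1 (-1.04) and Wt1 (-1.75) did not pass. With outlying local backgrounds repaired, Olr1 (-0.42, adjusted p = 0.212) was still not called.

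Mmp3, a matrix metalloproteinase that fibroblasts secrete, went from -1.64, 0.56, 1.81 and 1.54 to between -8.43 and -1.01, median -2.69 (log2 change -3.87, SE 1.01, adjusted p = 0.0416). The later arrays spread widely and reached the FBS Stella-GFP value of day 0. The call of Mmp3 rested on 9 arrays, each of which ended it when left out (adjusted p up to 0.138, without the FBS Dazl-GFP array of day 0). Also among the leading falls were Mal2 (-3.23) of apical transport, Galnt3 (-3.14), which starts O-linked sugar chains, and the ephrin receptor Epha1 (-3.13), with adjusted p at most 0.00216. Epha1 was at 2.32, 2.18, 2.14 and 2.46 at day 0 and between -2.78 and 0.11 (median -0.64) later, without overlap. The other leading falls were the helix-loop-helix factor Tcf23 (-3.24), the PIWI protein gene Piwil4 (-3.22), the mast cell protease gene Mcpt8 (-3.09) and Jakmip2 (-3.08). On the 8 later arrays Mmp3 and Mal2 were well above background 7 times, Piwil4 5 times, Mcpt8 3 times and Tcf23 2 times. Dim probes of Piwil4 (0.22), Prom2 (-0.01) and Jakmip2 (0.21 and 0.11) gave no call, nor did another probe of Jakmip2 at -1.71 or of Tcf23 at -0.43. With normexp as planned Tcf23 (-1.41) and Mcpt8 (-1.16) did not pass.

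Several genes that ERK switches on fell. Of 20 ERK targets and feedback inhibitors on the array 8 were called lower and none higher (background 3.66% lower), with a median change of -0.761. Spry4, a Sprouty inhibitor of receptor signalling to ERK, went from -0.15, 0.78, -0.80 and -0.14 at day 0 to between -5.40 and -3.44 (median -4.32) later, 19.5-fold lower (log2 change -4.29, SE 0.40, adjusted p = 0.000476). Its highest later array was still well below its lowest day 0 array. Etv4, an Ets factor downstream of FGF, went from 1.21, 1.98, 1.63 and 2.50 to between -2.51 and -0.75, median -1.61 (log2 change -3.55, SE 0.34, adjusted p = 0.000513), again without overlap. Dusp6, the phosphatase that inactivates ERK, went from 5.38, 4.51, 4.34 and 4.65 to between 1.33 and 3.02, median 2.59 (log2 change -2.36, SE 0.35, adjusted p = 0.00327), and Myc from 2.84, 2.89, 2.07 and 2.92 to between -1.85 and 0.88, median 0.38 (log2 change -2.94, SE 0.59, adjusted p = 0.0134). Neither gene's groups overlapped. The call of Myc did not hold without the serum-free Dazl-GFP array of day 0 (adjusted p = 0.061).

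The other 4 that fell were Etv1 (-2.26, adjusted p = 0.00406), Spred1, an inhibitor of Ras to ERK signalling (-1.60, adjusted p = 0.00178), the AP-1 gene Fosl1 (-1.31, adjusted p = 0.0167) and Il17rd, also known as Sef, an inhibitor of FGF signalling (-0.83, adjusted p = 0.0252). Immediate early genes of the list did not pass: Egr1 changed by 0.29, Egr2 by 1.46, Egr3 by 0.37 and Fos by 1.47. Neither did Etv5 (0.32), Ccnd1 (-0.09), Spry2 (-0.64), Spry1 (-0.78) or Dusp4 (-0.89). With the slide as a block 6 of the 20 were lower, and leaving out 1 array at a time gave 6 to 10. Among 11 FGF ligands and receptors, Fgf5 and Fgf15 were lower and no receptor passed.

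Of 18 targets of beta-catenin on the array 1 was called higher and 2 lower (backgrounds 3.99% and 3.66%), and the median change was -0.54. The secreted Wnt inhibitor Notum went from -1.32, -0.57, -0.32 and 0.00 to between -0.35 and 1.78, median 1.03 (log2 change 1.39, SE 0.21, adjusted p = 0.00358). Nkd1 and Nkd2, which act against Dishevelled, fell by 1.58 (adjusted p = 0.0094) and 1.71 (adjusted p = 0.000433). For Nkd2, at -0.24, 0.45, -0.84 and -0.39 at day 0 and between -2.40 and -1.46 (median -2.10) later, all later arrays were lower than all day 0 arrays. Axin2 (-0.27), T (-0.42), Sp5 (0.31), Lef1 (-1.46) and Cdx2 (-2.32) did not pass.

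Many genes of the naive state rose. Of 14 on the array 7 were called higher and 1 lower (backgrounds 3.99% and 3.66%), with a median of 0.933. Klf2 was at 6.37, 5.53, 6.97 and 5.87 at day 0 and between 7.43 and 7.75 (median 7.57) later, 2.61-fold higher (log2 change 1.38, SE 0.20, adjusted p = 0.00311). Klf4 went from 3.57, 4.71, 4.70 and 4.76 to between 5.33 and 5.97, median 5.64 (log2 change 1.17, SE 0.21, adjusted p = 0.00885), and Tbx3 from 0.60, 2.11, 2.06 and 2.80 to between 3.28 and 4.60, median 4.04 (log2 change 2.13, SE 0.38, adjusted p = 0.0079). None of the 3 transcription factors overlapped between the groups. Klf2 had a wider range at day 0 than later. For Klf4 and Tbx3 the wider day 0 range came from the FBS Stella-GFP array alone, the lowest of the 4. A second probe of Klf2, well above background on all arrays, gave 0.38 (adjusted p = 0.174) and no call.

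Nanog, the homeobox factor at the centre of the network, went from 2.34, 2.45, 2.53 and 2.66 to between 2.93 and 4.10, median 3.33 (log2 change 0.96, SE 0.20, adjusted p = 0.0144), without overlap. Nanog lost its call without the FBS Stella-GFP array of day 0 (adjusted p = 0.0584) or the FBS Dazl-GFP array of day 0 (adjusted p = 0.0538). Also higher were the nuclear receptor gene Nr5a2 (0.87, adjusted p = 0.0114), Tcl1, a cofactor of AKT (1.12, adjusted p = 0.0376), and the adhesion gene Pecam1 (1.07, adjusted p = 0.019). Tfcp2l1 (0.91, adjusted p = 0.0555), Esrrb (0.71, adjusted p = 0.0705), Zfp42 (0.48), Klf5 (-0.07) and Nr0b1 (0.01) did not pass. The member that fell was Gbx2, a homeobox factor that LIF and STAT3 are known to induce, from 2.29, 1.79, 0.65 and 1.96 to between -2.96 and -0.31, median -1.21 (log2 change -3.20, SE 0.47, adjusted p = 0.00324), and a second, dim probe at -0.81 did not pass. Without the FBS Stella-GFP array of day 0 the list had 3 higher, and without the FBS Dazl-GFP array of day 0 it had 4. With the slide as a block 3 were higher, and for day 10 alone 1 was, against 8 for day 3 alone.

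**Figure D2:**
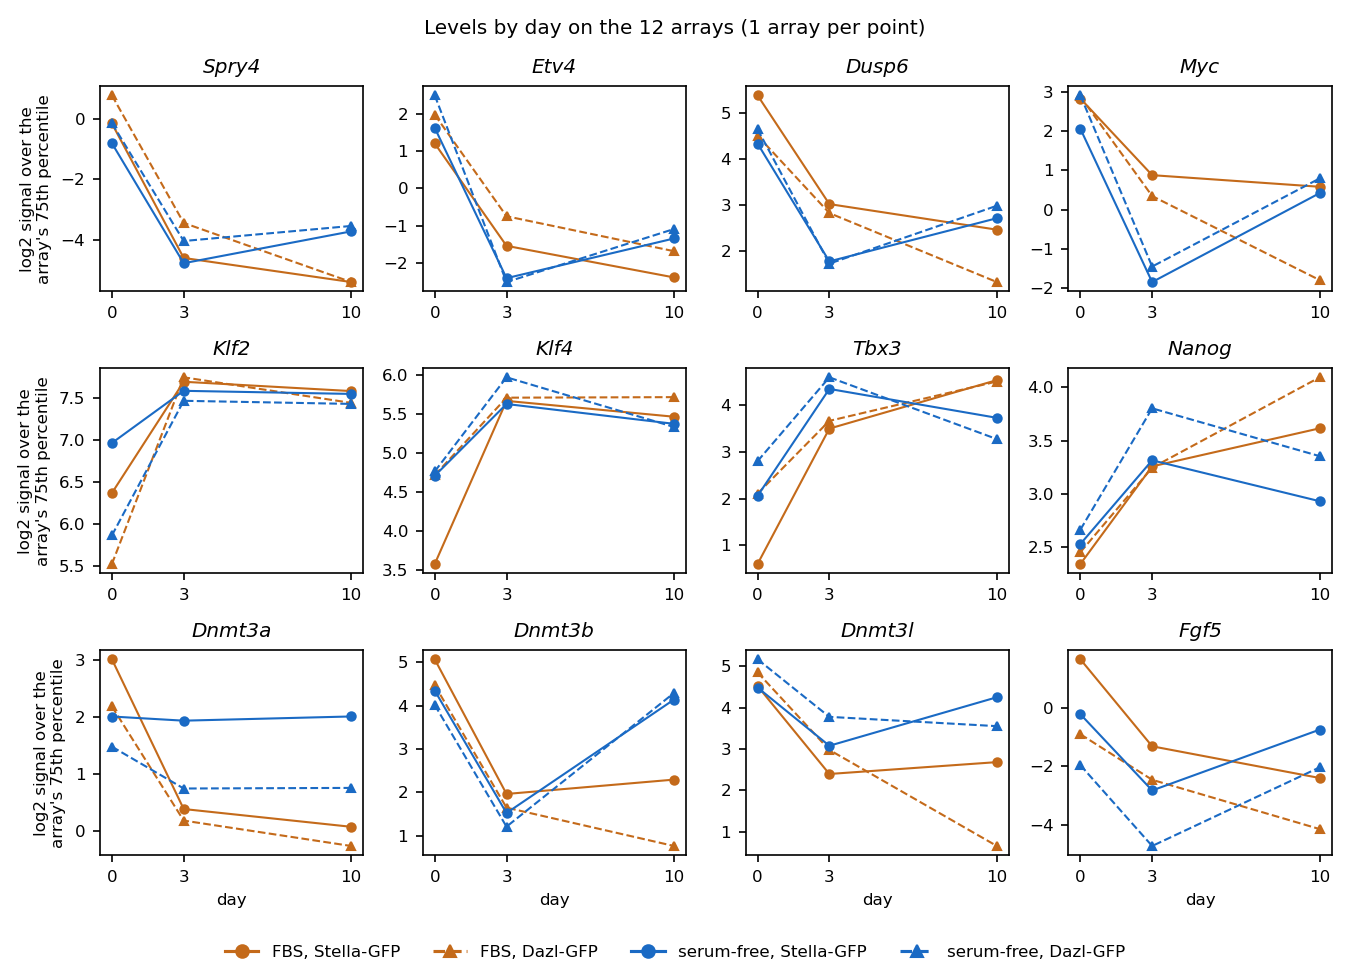
Levels of 12 genes at days 0, 3 and 10 in each arm and line (1 array per point), as log2 signal over the array's 75th percentile: 4 ERK targets (top), 4 naive genes (middle), and the de novo DNA methylation genes with Fgf5 (bottom). Spry4, Etv4, Dusp6 and Myc were lower on every later array than on any day 0 array, while Dnmt3b was back at 4.14 and 4.29 in the serum-free arm at day 10.

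The primed and formative states follow the naive state, and several of their genes fell. Of 12 on the array 6 were called lower and none higher (backgrounds 3.66% and 3.99%), with a median of -1.45. Grhl2, an epithelial transcription factor, went from 1.42, 1.06, 1.58 and 1.61 to between -2.56 and -0.13, median -1.58 (log2 change -2.85, SE 0.36, adjusted p = 0.00169), without overlap. Its call held without each array in turn. Fgf5, the classic marker of the epiblast, was at 1.68, -0.90, -0.21 and -1.96 at day 0 and between -4.74 and -0.74 (median -2.43) later (log2 change -2.24, SE 0.58, adjusted p = 0.0404). Here the groups overlapped, and the day 0 levels themselves spanned a wide range. The call of Fgf5 rested on 9 arrays, each of which ended it when left out (adjusted p up to 0.167, without the FBS Stella-GFP array of day 0). Pou3f1, a POU factor, changed by -2.20 (adjusted p = 0.0384) and Fgf15 by -1.99 (adjusted p = 0.0342). Any 1 of 9 arrays, left out, ended the call of Pou3f1 (adjusted p up to 0.147, without the FBS Stella-GFP array of day 0). Fgf15 lost its call without any 1 of 8 arrays, with adjusted p up to 0.11 (without the FBS Stella-GFP array of day 0).

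The count of this list fell to 3 or fewer without any 1 of 10 of the 12 arrays. It was 1 of 12 without the FBS Stella-GFP array of day 0, 3 or 10, the FBS Dazl-GFP array of day 0 or 10, or the serum-free Stella-GFP array of day 3. It was 2 without either serum-free array of day 0, and 3 without the FBS Dazl-GFP or the serum-free Dazl-GFP array of day 3. With the slide as a block or in the table of the authors, 2 were lower, and with no replicate block or with the 4 pairs as blocks 3 were. For day 10 alone 1 was called, against 6 for day 3 alone. Otx2 (0.17), Sox3 (0.02), Zic2 (0.49), Cdh2 (-0.22), Sall2 (-0.96) and Lef1 did not pass.

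Among enzymes of DNA methylation, transcripts of both de novo methyltransferases fell. Of 16 genes for DNA methylation and demethylation 6 were called lower and 1 higher (backgrounds 3.66% and 3.99%), with a median of -0.156. Dnmt3b, a de novo methyltransferase, was at 5.07, 4.47, 4.35 and 4.02 at day 0 and between 0.76 and 4.29 (median 1.81) later (log2 change -2.25, SE 0.62, adjusted p = 0.0497). All day 3 arrays were low, and the serum-free arrays of day 10 were near their day 0 level, so the groups overlapped. Dnmt3a, the other de novo enzyme, went from 3.02, 2.19, 2.01 and 1.48 to between -0.26 and 2.01, median 0.57 (log2 change -1.44, SE 0.37, adjusted p = 0.0363). In serum-free Stella-GFP cells, Dnmt3a was at 2.01, 1.94 and 2.01 at days 0, 3 and 10, so that pair fell in sign only. Dnmt3l, their catalytically inactive partner, went from 4.53, 4.86, 4.49 and 5.17 to between 0.65 and 4.25, median 3.03 (log2 change -1.84, SE 0.44, adjusted p = 0.0294), with no later array reaching the day 0 levels. The call of Dnmt3b rested on 10 arrays, each of which ended it when left out (adjusted p up to 0.181, without the FBS Stella-GFP array of day 0). Any 1 of 8 arrays, left out, ended the call of Dnmt3a (adjusted p up to 0.154, without the FBS Stella-GFP array of day 0). Dnmt3l lost its call without any 1 of 4 arrays, with adjusted p up to 0.109 (without the FBS Stella-GFP array of day 0).

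Dnmt1, the maintenance enzyme (0.37), and Uhrf1, which brings it to DNA (0.00), did not pass. The stress gene Gadd45b rose from -0.61, -0.08, 0.35 and 0.18 to between 0.21 and 2.90, median 1.98 (log2 change 1.96, SE 0.41, adjusted p = 0.0166), while Gadd45a (-1.25, adjusted p = 0.00191) fell. Without the FBS Stella-GFP array of day 0 (adjusted p = 0.0656) or the FBS Dazl-GFP array of day 0 (adjusted p = 0.0601), Gadd45b was no longer called. Of the TET enzymes, which oxidise methylcytosine and are named in the series title, Tet1 was at 0.36, 0.93, 0.67 and 0.56 at day 0 and between -0.03 and 0.80 (median 0.40) later (log2 change -0.22, SE 0.17, adjusted p = 0.488). Tet2 was at -1.44, -1.20, -0.66 and 0.01 and between -1.28 and 0.04, median -0.74 (log2 change 0.14, SE 0.22, adjusted p = 0.747), so neither gene passed. Tet3 went from -1.95, -2.01, -3.06 and -2.35 to between -4.19 and -2.72, median -3.40 (log2 change -1.18, SE 0.27, adjusted p = 0.0241), but its other probes gave -0.10 and 0.16 with no call. The call of Tet3 did not hold without the serum-free Dazl-GFP array of day 0 (adjusted p = 0.103), the FBS Stella-GFP array of day 0 (adjusted p = 0.0885) or the FBS Dazl-GFP array of day 0 (adjusted p = 0.0716). The list had 1 lower gene and none higher with the slide as a block or without the FBS Stella-GFP array of day 0. It had 2 lower without the FBS Dazl-GFP or serum-free Dazl-GFP array of day 0 or the serum-free Stella-GFP array of day 3. It had 3 lower without either FBS array of day 10 or the serum-free Dazl-GFP array of day 3.

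Among genes of pluripotency in general, 1 of 13 was called higher (Nanog) and 2 lower (backgrounds 3.99% and 3.66%), with a median of -0.119. Pou5f1, which encodes OCT4, was at 5.58, 5.05, 4.76 and 5.00 at day 0 and between 4.21 and 5.28 (median 4.70) later (log2 change -0.32, SE 0.23, adjusted p = 0.462) and did not pass. Sox2 changed by 0.30 and Sall4 by -0.12, also without passing. The RNA-binding protein gene Lin28a (-1.58, adjusted p = 0.0323) and the chromatin factor gene Utf1 (-1.55, adjusted p = 0.0436) fell. Lin28a lost its call without any 1 of 7 arrays, with adjusted p up to 0.124 (without the FBS Stella-GFP array of day 0). The call of Utf1 rested on 9 arrays, each of which ended it when left out (adjusted p up to 0.143, without the FBS Dazl-GFP array of day 0). Of 11 LIF-STAT3 targets Klf4 and the receptor subunit gene Il6st (0.61, adjusted p = 0.0191) rose, and Socs3 (-0.34) did not pass. The call of Il6st did not hold without the FBS Stella-GFP array of day 0 (adjusted p = 0.0907) or the serum-free Dazl-GFP array of day 0 (adjusted p = 0.0871). Of 10 targets of bone morphogenetic protein, Id4 rose by 2.13 (adjusted p = 0.00382) and Smad7 fell by 0.81 (adjusted p = 0.0149). Smad7 lost its call without the serum-free Dazl-GFP array of day 0 (adjusted p = 0.0751) or the serum-free Stella-GFP array of day 0 (adjusted p = 0.0555). Id1 (-1.21), Id2 (-0.51) and Id3 (-0.04) did not pass.

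Imprinted genes, which are expressed from the maternal or the paternal copy, made up the list with the most falls. Of 19 on the array 9 were called lower and none higher (backgrounds 3.66% and 3.99%), with a median of -1.24. Dlk1, a paternally expressed Notch-like ligand, went from 0.96, 0.03, -1.16 and -0.86 at day 0 to between -5.21 and -2.24 (median -3.11) later, 8.55-fold lower (log2 change -3.10, SE 0.36, adjusted p = 0.00131). All later arrays were below all day 0 arrays, and the change was -2.67 within slide 1 and -2.94 within slide 3. The maternally expressed noncoding genes of the same cluster, Rian (-2.31, adjusted p = 0.00314), Mirg (-1.52, adjusted p = 0.0128) and Meg3 (-1.34, adjusted p = 0.0047), fell too. Dio3 of this cluster, not on the list and looked up afterwards, was called higher (2.27, adjusted p = 0.00829).

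Cdkn1c, an inhibitor of the cell cycle, went from 2.91, 3.35, 1.23 and 1.28 to between -1.97 and 0.64, median 0.04 (log2 change -2.44, SE 0.36, adjusted p = 0.00314). Phlda2, which restrains placental growth, went from 4.58, 4.45, 3.14 and 3.53 to between 0.48 and 2.99, median 1.95 (log2 change -2.12, SE 0.26, adjusted p = 0.0016). The groups overlapped for neither gene, and both had begun higher in the FBS arm. Peg10 (-1.98, adjusted p = 0.0476), Grb10 (-1.48, adjusted p = 0.00225) and Snrpn (-1.24, adjusted p = 0.00149) completed the 9. Nnat changed by -1.69 (adjusted p = 0.0126) and was lower in 3 pairs. It was not called, since an irregular spot was left out and the FBS Dazl-GFP pair had no value. H19 (0.81), Igf2 (-0.07), Igf2r (0.22), Peg3 (-0.26), Mest (-0.57) and Plagl1 (1.22) did not pass. The list kept 8 lower genes with the slide as a block, and 7 to 9 without each array in turn. In the table of the authors 8 of 18 were lower and 1 was higher.

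**Figure D3:**
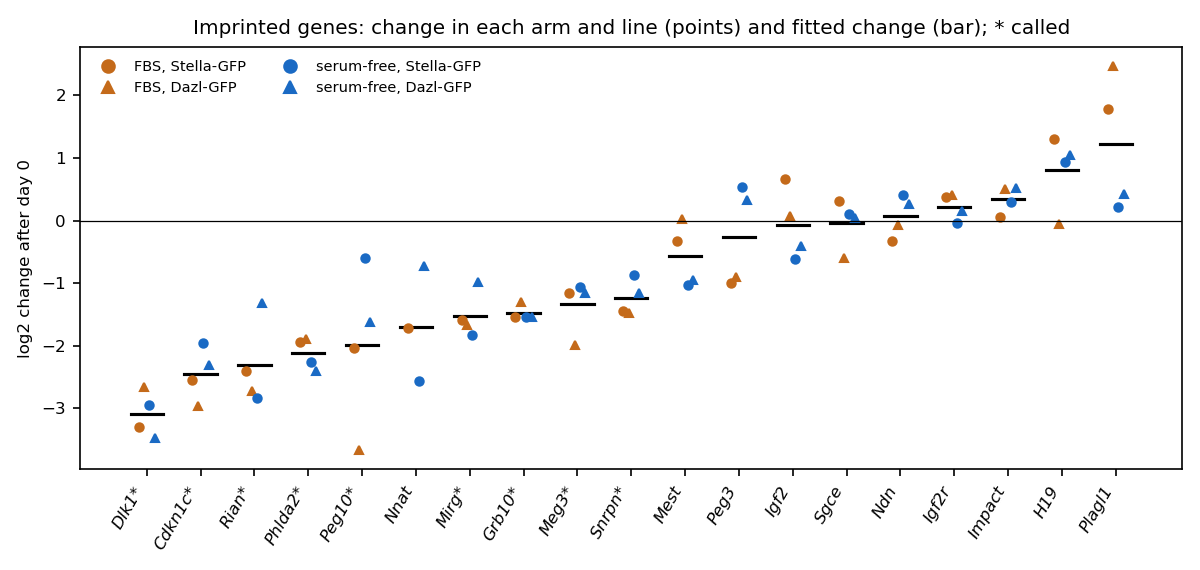
Log2 change after day 0 of the 19 imprinted genes in each arm and line (points) with the fitted change over all arrays (bar), and an asterisk on the 9 called genes. For Dlk1, Cdkn1c, Phlda2 and Rian the 4 points all lie below -1.

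Germ cell genes changed in both directions. Of 21 on the array 2 were called higher and 5 lower (backgrounds 3.99% and 3.66%), with a median of -0.847. Kit, the receptor of stem cell factor, went from -0.65, -0.07, -0.43 and -0.32 to between 0.57 and 2.44, median 1.44 (log2 change 1.86, SE 0.25, adjusted p = 0.00216), without overlap, and Tfap2c, a transcription factor of early germ cells, rose by 1.71 (adjusted p = 0.021). The call of Tfap2c rested on 4 arrays, each of which ended it when left out (adjusted p up to 0.0942, without the serum-free Dazl-GFP array of day 0). The genes that fell act in the PIWI-interacting RNA pathway or the germ granule: Piwil2 (-1.49, adjusted p = 0.00208), Tdrd1 (-1.37, adjusted p = 0.000844), Mael (-1.33, adjusted p = 0.0134), Ddx4 (-1.14, adjusted p = 0.00562) and Mov10l1 (-1.08, adjusted p = 0.0227). Piwil2 was at -0.99, -0.65, -0.64 and -0.32 at day 0 and between -2.62 and -1.72 (median -2.07) later, without overlap. A second, dim probe of Tdrd1 at -0.93 did not pass. The list had 3 lower genes with the slide as a block or without the serum-free Dazl-GFP array of day 0. It had 1 higher gene with the slide as a block, without either FBS array of day 0, or without the serum-free Dazl-GFP array of day 0 or the serum-free Stella-GFP array of day 3.

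The genes for which the lines are named did not pass. Dazl, an RNA-binding protein gene, was at -1.94, -0.79, -2.68 and -1.01 at day 0 and between -2.61 and 3.19 (median -0.35) later (log2 change 1.30, SE 0.54, adjusted p = 0.191). Its highest later array was FBS Dazl-GFP at day 10 and its lowest FBS Stella-GFP at day 3, and the groups overlapped. Dppa3 was at 2.39, 2.16, 4.11 and 2.52 at day 0 and between 2.37 and 5.33 (median 4.20) later (log2 change 1.35, SE 0.53, adjusted p = 0.16). It was higher than in the same arm and line at day 0 on all 4 arrays of day 3, by a mean of 2.15. At day 10 the mean difference was 0.54, and both Stella-GFP arrays lay slightly below their own day 0 level, at 2.37 against 2.39 in the FBS arm and 3.91 against 4.11 in the serum-free arm.

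Primitive endoderm gives rise to the yolk sac. Of its 18 marker genes 4 were called lower and none higher (backgrounds 3.66% and 3.99%), with a median of -0.369. All 4 serve uptake at the cell surface: the receptor Lrp2, or megalin (log2 change -2.68, SE 0.30, adjusted p = 0.00103), its partner Cubn (log2 change -3.31, SE 0.65, adjusted p = 0.0124), the adaptor Dab2 (log2 change -2.25, SE 0.49, adjusted p = 0.0188) and Amn, the anchor of cubilin (log2 change -1.53, SE 0.39, adjusted p = 0.0391). Lrp2 went from 2.69, 1.67, 1.36 and 1.66 to between -1.41 and 0.21, median -1.02, without overlap. Cubn was at -2.92, 0.33, 1.93 and 2.32 at day 0, lowest in FBS Stella-GFP cells, and between -4.98 and 0.94 (median -3.43) later, with overlap. The lineage factors Gata4 (0.10), Gata6 (-0.80) and Sox17 (0.25) did not pass, and the list's summed signal was 29.84 to 52.72 at day 0 and 23.52 to 73.13 later. The call of Cubn did not hold without the FBS Dazl-GFP array of day 0 (adjusted p = 0.0512). With normexp as planned the change of Cubn was -2.50 and not called (adjusted p = 0.0869). Dab2 lost its call without any 1 of 4 arrays, with adjusted p up to 0.0832 (without the serum-free Dazl-GFP array of day 0). The call of Amn rested on 8 arrays, each of which ended it when left out (adjusted p up to 0.146, without the serum-free Dazl-GFP array of day 0). Dimmer probes of Dab2 at -1.69 and 0.37 did not pass. The list had 1 lower gene without the FBS Dazl-GFP array of day 0, and 2 without the FBS Stella-GFP or either serum-free array of day 0.

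Lists for other lineages gave few calls (backgrounds 3.99% higher and 3.66% lower). Gata3 was the 1 of 12 trophoblast genes called higher (log2 change 1.94, SE 0.47, adjusted p = 0.0303), turning to -0.01 with normexp as planned, and Fabp7 the 1 of 12 neuroectoderm genes called lower (log2 change -1.99, SE 0.50, adjusted p = 0.0341). The summed trophoblast signal was 9.238 to 13.12 at day 0 and 2.822 to 11.51 later. On all 8 later arrays it lay below day 0 of the same arm and line, while the median change of the list's genes was -0.0459. No mesendoderm gene of 12 was called. Gata3 was well above background on 2 of 4 day 0 arrays, and Fabp7 on 3 of 4 day 0 and 2 of 8 later arrays. Any 1 of 4 arrays, left out, ended the call of Gata3 (adjusted p up to 0.106, without the FBS Stella-GFP array of day 0). Fabp7 lost its call without any 1 of 9 arrays, with adjusted p up to 0.118 (without the FBS Stella-GFP array of day 0). Of the 22 fibroblast markers, the fibronectin gene Fn1 rose by 0.86 (adjusted p = 0.0415) and Mmp2 fell by 1.22 (adjusted p = 0.0224), with a median of -0.197 and collagens such as Col1a1 (0.61) and Col3a1 (0.34) not passing. Further probes of Fn1 gave 0.92 (adjusted p = 0.0508) and 0.75 (adjusted p = 0.0804). The call of Fn1 rested on 9 arrays, each of which ended it when left out (adjusted p up to 0.162, without the FBS Stella-GFP array of day 0). The call of Mmp2 did not hold without the FBS Dazl-GFP array of day 0 (adjusted p = 0.077), the FBS Stella-GFP array of day 0 (adjusted p = 0.0624) or the serum-free Dazl-GFP array of day 0 (adjusted p = 0.0598). None of 16 macrophage markers was called. Of 7 chemokines Ccl2 changed by -2.36 (adjusted p = 0.0419) and Cxcl12 by -1.40 (adjusted p = 0.0424). Ccl2 lost its call without any 1 of 10 arrays, with adjusted p up to 0.155 (without the serum-free Dazl-GFP array of day 0). The call of Cxcl12 rested on 8 arrays, each of which ended it when left out (adjusted p up to 0.133, without the FBS Stella-GFP array of day 0). Of 13 contractile and YAP-SRF targets Ankrd1 (-1.16, adjusted p = 0.0126) and Cnn1 (-1.23, adjusted p = 0.0122) fell, Ankrd1 being well above background on 6 of the 8 later arrays. The call of Ankrd1 did not hold without the FBS Stella-GFP array of day 0 (adjusted p = 0.0503). Cnn1 lost its call without the serum-free Dazl-GFP array of day 0 (adjusted p = 0.0592). The part of feeder cells in these falls was not tested beyond the summed fibroblast signal, which was higher after day 0 in most FBS arrays and lower in most serum-free ones.

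Metabolic lists differed in how many genes were called. Of 21 genes of glycolysis and hypoxia 5 were higher and 2 lower (backgrounds 3.99% and 3.66%), with a median of -0.0283. The glucose transporter gene Slc2a3 rose by 0.90 (adjusted p = 0.00644), hexokinase Hk1 by 1.22 (adjusted p = 0.0291), and Pfkp, Gpi1 (0.55) and Aldoa (0.54) rose as well, with adjusted p at most 0.0434. Of 5 further probes of Hk1, 2 rose and 3 (1.05, 0.76 and 0.52) did not pass, and 1 of 2 further probes of Pfkp (1.58, adjusted p = 0.0858) did not. Pdk1, which holds pyruvate back from the mitochondrion (-1.35, adjusted p = 0.0275), and Egln3, an oxygen-sensing hydroxylase (-1.15, adjusted p = 0.0119), fell. The call of Hk1 rested on 6 arrays, each of which ended it when left out (adjusted p up to 0.113, without the FBS Stella-GFP array of day 0). Any 1 of 10 arrays, left out, ended the call of Pfkp (adjusted p up to 0.152, without the serum-free Dazl-GFP array of day 0). Pdk1 lost its call without the FBS Stella-GFP array of day 0 (adjusted p = 0.101), the FBS Dazl-GFP array of day 0 (adjusted p = 0.088) or the serum-free Dazl-GFP array of day 0 (adjusted p = 0.0555). Without the serum-free Dazl-GFP array of day 0 (adjusted p = 0.0585), Egln3 was no longer called. The 5 rises became 1 without the FBS Stella-GFP or FBS Dazl-GFP array of day 0, the FBS Stella-GFP or FBS Dazl-GFP array of day 10 or the serum-free Stella-GFP array of day 3. They became 2 without either serum-free array of day 0 or the serum-free Dazl-GFP array of day 3, 3 without the FBS Stella-GFP array of day 3 or the serum-free Stella-GFP array of day 10, and 1 with the slide as a block. The 2 falls became 1 with the slide as a block or without either FBS array of day 0, and none without the serum-free Dazl-GFP array of day 0. None of 20 respiratory chain genes, 20 sterol synthesis genes or 10 fatty acid synthesis genes was called.

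Stress and growth lists held 0 to 2 called genes in each direction (backgrounds 3.99% higher and 3.66% lower). Of 22 ATF4 targets and stress regulators Asns, which makes asparagine, rose from 6.09, 6.44, 6.46 and 6.47 to between 6.92 and 7.92, median 7.30 (log2 change 0.98, SE 0.19, adjusted p = 0.0123). The call of Asns did not hold without the FBS Stella-GFP array of day 0 (adjusted p = 0.0556) or the serum-free Dazl-GFP array of day 0 (adjusted p = 0.0518). None of 9 genes of the unfolded protein response or 7 heat shock genes was called. Of 15 p53 targets, Cdkn1a, the inhibitor p21, rose by 1.28 (adjusted p = 0.00279) and Pmaip1, the death gene Noxa, fell by 1.18 (adjusted p = 0.00329). Cdkn1a was at 0.22, 0.95, 0.79 and 0.89 at day 0 and between 1.64 and 2.16 (median 2.08) later, without overlap. Of 20 cell division genes 1 was called, E2f1, which rose by 0.60 (adjusted p = 0.0309). E2f1 lost its call without any 1 of 8 arrays, with adjusted p up to 0.14 (without the serum-free Dazl-GFP array of day 0). Of 9 lysosome and autophagy genes Ctsb (0.65, adjusted p = 0.0365) and Mcoln1 (0.60, adjusted p = 0.0167) rose, and a second probe of Mcoln1 at 0.56 (adjusted p = 0.174) did not pass. The call of Ctsb rested on 9 arrays, each of which ended it when left out (adjusted p up to 0.159, without the FBS Stella-GFP array of day 0). The call of Mcoln1 did not hold without the serum-free Dazl-GFP array of day 0 (adjusted p = 0.0873) or the FBS Stella-GFP array of day 0 (adjusted p = 0.0612). Of 12 genes of ribosome biogenesis and Myc, Myc alone was called. Among 16 interferon response genes Oas1a rose by 1.95 (adjusted p = 0.00571) and Ifit2 fell by 1.69 (adjusted p = 0.0201). Ifit2 was well above background on 5 of the 8 later arrays, and its second, dim probe at -0.48 did not pass. Ifit2 lost its call without the serum-free Stella-GFP array of day 0 (adjusted p = 0.0731), the FBS Dazl-GFP array of day 0 (adjusted p = 0.065) or the serum-free Dazl-GFP array of day 0 (adjusted p = 0.0632). No gene of the 8 Nodal targets, 11 retinoid response genes or 6 genes of the 2-cell stage was called.

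**Figure D4:**
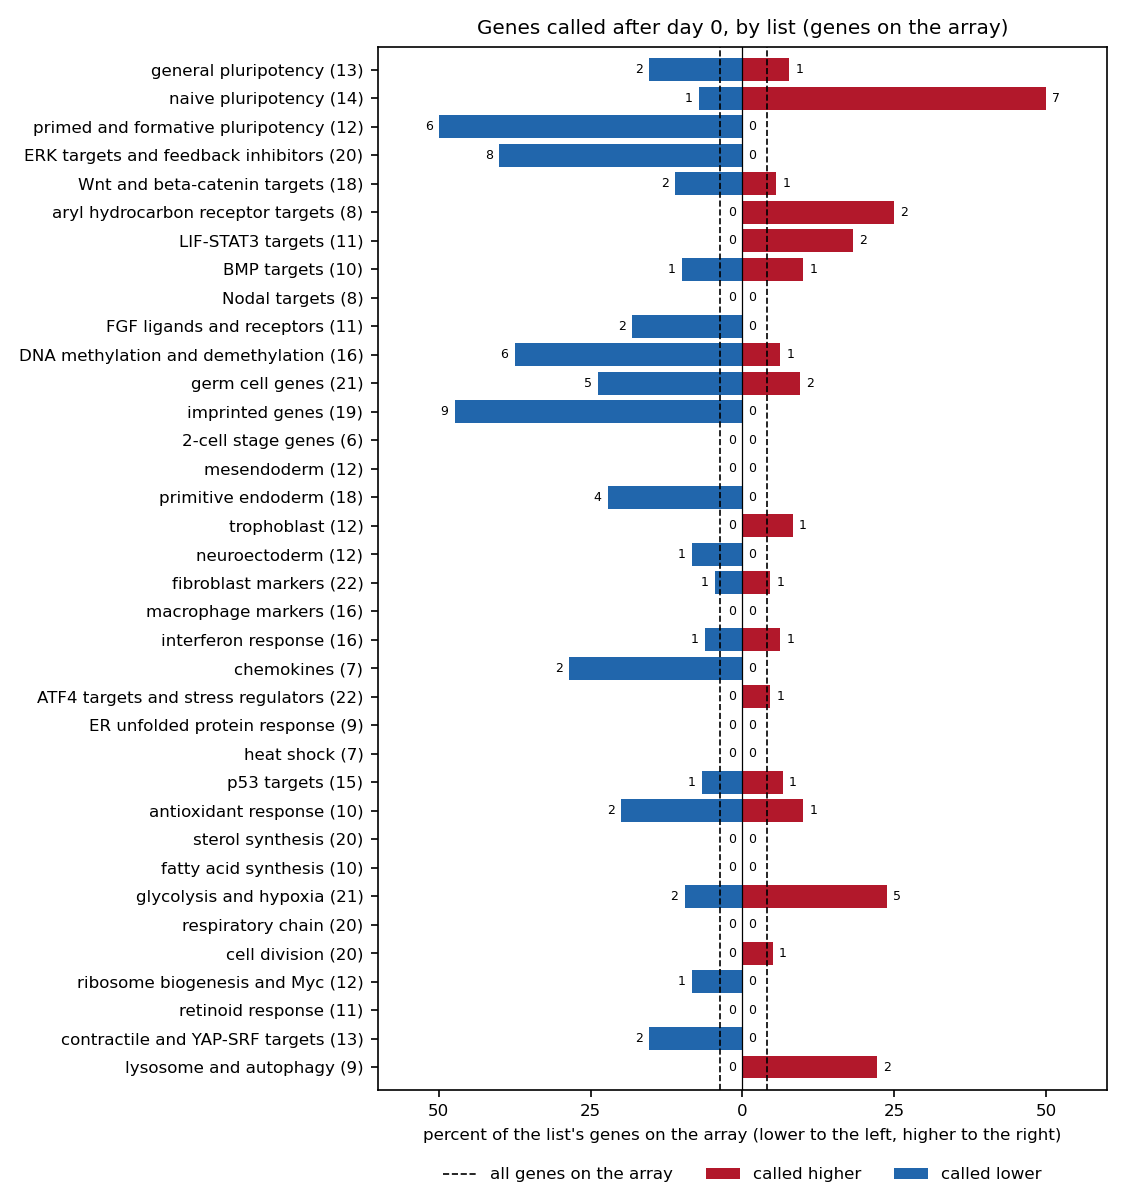
Share of each list's genes on the array (number in brackets) called lower, to the left, or higher, to the right, in percent, with the number of genes at the end of each bar. Dashed lines mark the shares over all genes, 3.66% lower and 3.99% higher, and the longest bars are those of the naive list (7 of 14 higher), the primed list (6 of 12 lower) and the imprinted list (9 of 19 lower).

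The change was then compared between the arms. No gene's change differed between the FBS and serum-free arms at an adjusted p under 0.05 (0%), though 3265 probes passed an unadjusted p of 0.05. Fitted on its own with 6 arrays, the FBS arm gave 139 called genes (0.502%) and the serum-free arm none (0%), with 4182 and 4067 genes at an unadjusted p under 0.05. The called genes moved by a median of 1.1 in the FBS arm and 1.01 in the serum-free arm, without regard to sign, and 1250 moved more in the FBS arm and 868 more in the serum-free arm. For Cyp1a1 the change in the serum-free arm was larger by 1.57 (SE 0.86, adjusted p = 0.688), and for Spic smaller by 2.92 (SE 0.91). For Spry4 the arms differed by 1.48 (SE 0.74) and for Dlk1 by -0.22 (SE 0.78), serum-free minus FBS. Neither these nor the difference for Spic passed. The same difference was larger against its SE for Dnmt3a (2.12, SE 0.35), Nqo1 (-1.17, SE 0.26), Gata3 (-2.53, SE 0.62) and Gadd45b (-2.05, SE 0.60). In these genes it did not pass either, with adjusted p between 0.351 and 0.507. The authors' table gave 43 probes with an arm difference, and other settings gave at most 3.

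**Figure D5:**
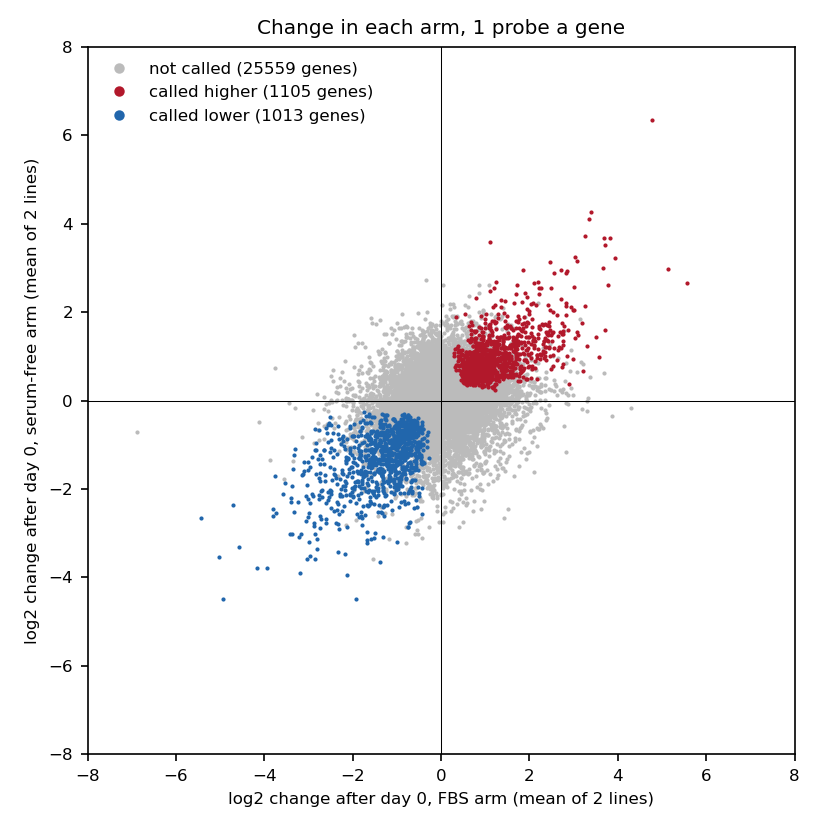
Log2 change after day 0 in the FBS arm (horizontal) and the serum-free arm (vertical), each the mean over both lines, with 1 point per gene and called genes in colour. The 1105 genes called higher and 1013 called lower lie in the quadrants where both arms share a sign, as the rule requires, and Cyp1a1 is the point highest on the vertical axis.

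The days were compared within the later arrays. Over both arms no gene differed between day 10 and day 3 (0%; 2669 probes at an unadjusted p under 0.05), and the called genes moved by a median of 1.07 at day 3 and 1.08 at day 10. The step from day 3 to day 10 often went opposite ways in the arms. In 12960 genes (46.8%) it had one sign in both lines of the FBS arm and the other sign in both lines of the serum-free arm, and so it did in 726 of the called genes (34.3%). The test of this difference, added after the data were seen and with 2 residual degrees of freedom, passed for no gene (0%; lowest adjusted p = 0.0781), with 17060 probes at an unadjusted p under 0.05. Other measures moved with this step, and their part in it was not tested. The step went opposite ways in 18 of 22 fibroblast and 13 of 16 macrophage markers. The summed fibroblast signal was 89.67 to 151 at day 3 and 69.46 to 96.31 at day 10 in the FBS arm, and 42.69 to 51.66 and then 47.54 to 74.12 in the serum-free arm. The array's 75th percentile went from 454 to 718 and 562 to 878 intensity units in the FBS lines and from 696 to 629 and 874 to 602 in the serum-free lines. For Etv4 the step was -0.94 and -0.85 in the FBS lines and 1.07 and 1.43 in the serum-free lines. Dusp6 and Myc followed the same order of signs, and Fgf5 stepped by -1.09 and -1.69 in the FBS lines and 2.09 and 2.70 in the serum-free ones. Tbx3 and Nanog had the opposite order, up in both FBS lines and down in both serum-free lines. Counted by list, steps of opposite sign were found in 10 of 20 ERK targets, 4 of 12 primed and 9 of 14 naive genes. Over all genes the share was 46.8%. Klf2 and Klf4 of the naive list did not step opposite ways.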

How the data were processed

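RNA of 12 samples was hybridised to 1-colour Agilent mouse arrays, 1 sample per array, on 3 slides of 4 arrays. Only FBS Dazl-GFP (slide 1) and serum-free Stella-GFP (slide 3) had all their arrays on 1 slide. FBS Stella-GFP was on slide 1 at day 0 and on slide 2 later, so slide and day cannot be told apart there. Serum-free Dazl-GFP was on slide 2 at days 0 and 3 and on slide 3 at day 10. The deposited intensity values are green-channel processed signals, background-corrected by Agilent Feature Extraction 9.1.3.1 per the file headers. The files also hold 0 or 1 marks for spots well above background, saturated or irregular, as deposited. The authors' series table gives each signal as a ratio to the median of its array, as found by comparison with the scanner files: 41529 joined rows differed by at most 0.00042 (log2).

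Control spots and 30 irregular spots were left out of 45018 spots, and no spot was saturated. Log2 signals minus the array's 75th percentile, averaged per probe, were fitted in R 4.3.3 with limma 3.58.1 (lmFit and eBayes, arm and line as blocks, Benjamini-Hochberg over 41174 probes). Reporter lines recur in each arm and day and carry the replicate numbers, so the line is the replicate block. The 4 pairs of arm and line entered as blocks in an alternative fit only, with 1402 probes higher and 1268 lower. Gene names came from RefSeq by accession (22951 probes), else from the file (6659) or an older symbol (3096), and 8468 probes stayed unmatched. The unmatched probes kept their file names, and each such name counts as a gene in the shares. The fit was tested on simulated data. Named were the 20 highest and 20 lowest called changes among genes well above background on at least 2 arrays of the brighter side, up to 4 called members of each of 36 lists, and Dazl, Dppa3, Nanog, Pou5f1 and the Tet genes. Further list members are named to complete a list and were chosen with their values in view. Some named genes are not reported here. Members and lists were chosen with earlier results of these data known. No count depth applies to arrays.

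Alternatives were other background corrections, normalizations, filters and blocks, the authors' table (floor 0.1), single days and arms, and leaving out each array. Promoter windows came from RefSeq (GRCm38.p6), and figures were drawn with matplotlib 3.10.9.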

Additional observations from a re-analysis of the deposited data

Results flagged for a closer look

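In 9 of 202 groups of arrays, a group being the 4 day 0 or the 8 later arrays of 1 of the 101 named genes, the highest or lowest array stood apart from the rest by Dixon's ratio, where chance gives about 1 in 20. Values are log2 signals over the array's 75th percentile. At day 0 the FBS Stella-GFP array was apart for Klf4 at 3.57 (the nearest other array at 4.7), for Tnfsf11 at -1.59 (nearest -2.69) and for Asns at 6.09 (nearest 6.44). The FBS Dazl-GFP array of day 0 was apart for the vesicle release gene Cadps2 at -6.1 (nearest -5) and for Galnt3 at -0.158 (nearest 0.428). For Myc the serum-free Stella-GFP array of day 0 was apart at 2.06 (nearest 2.84). Among the later arrays, the FBS Dazl-GFP array of day 10 was lowest for Pmaip1 at 2.08 (nearest 2.93), the serum-free Dazl-GFP array of day 3 was highest for Dab2 at -0.926 (nearest -2.49), and the serum-free Dazl-GFP array of day 10 was lowest for Amn at -4.15 (nearest -2.68).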

How the results depend on the processing

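Counts are of probes called higher and lower, 1605 and 1475 as reported (52.1% higher). With normexp background correction as planned they were 85 and 141 (37.6% higher, median change of all probes -0.401), where 10 spots had a local background over 10 times the array median. With those backgrounds repaired, a setting chosen after seeing the data, they were 2087 and 1393 (60% higher). The slide as a block gave 620 and 740 (45.6% higher), day 3 alone 763 and 869, day 10 alone 650 and 683, the FBS arm alone 83 and 102 (44.9% higher) and the serum-free arm alone 0 and 1, the last 4 with fewer arrays. Leaving out each array in turn gave 655 to 1705 higher and 675 to 1661 lower, and 0 to 2 arm differences. Without the line as the replicate block the counts were 1479 and 1339, with 2 arm differences, and 7 of the 96 called named genes lost their call. Probes with an arm difference numbered 3 with quantile normalization, 43 in the authors' table, 2 with the slide as a block, and 1 each with repaired normexp, with only probes above background on all 12 arrays or with a variance trend. Probes differing between days 10 and 3 numbered 35, 2 and 6 in these last 3 settings.

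Of the 96 called named genes 65 kept their call with the slide as a block, 31 with normexp as planned, 92 with it repaired, 89 with quantile normalization and 74 in the authors' table. By list, normexp as planned gave 5 of 20 ERK targets, 1 of 12 primed and 6 of 19 imprinted genes lower. Of 14 naive genes 3 were then higher and 1 lower, and none of 16 genes for DNA methylation and demethylation was called. Changes of sign were seen with normexp as planned for Cd3d (-0.07452), Ffar2 (-0.1366), Gata3 (-0.007981) and Tet2 (-0.07874), with the slide as a block for Pou5f1 (0.02104), and for Tet2 in the serum-free arm alone (-0.3063). Leaving out each array gave changes of -0.07152 to 0.2753 for Tet2. Quantile normalization gave 1820 and 1917 (48.7% higher), and the table of the authors gave 1247 and 1458 (46.1% higher). The normexp settings differed only in the repaired local backgrounds. The cause of the other differences was not tested. Signals near background limit the dim genes: 2070 of the 2118 called genes were well above background on at least 2 arrays.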

Other observations

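Further gene families were looked up after their values were seen, so they are given as values and support nothing beyond them. Of 12 oligoadenylate synthetase genes, which sense double-stranded RNA, 6 were called higher and none lower, among them Oas1a (1.95), Oas1f (1.93), Oas1d (1.61) and Oas3 (1.61), and close copies may share signal on an array. Both metallothioneins Mt1 (1.71) and Mt2 (1.52), of 4 on the array, were higher. Among 9 Jun and Fos family genes Jun (1.84), Jdp2 (1.55) and Jund (0.98) were higher and Fosl1 lower. Of 17 Kruppel-like factors 4 were higher, Klf8 (1.44) and Klf6 (1.33) beside Klf2 and Klf4. Of 9 type A ephrin receptors Epha4 was higher (1.95), while Epha1 and Epha8 were lower. Background shares were 3.99% higher and 3.66% lower.

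In the imprinted Dlk1-Dio3 cluster all 5 genes looked up were called: Dio3, an enzyme that inactivates thyroid hormone, was higher by 2.27 (adjusted p = 0.00829 by limma), while Dlk1, Meg3, Rian and Mirg were lower. Of 16 regulators of endothelium and blood 7 were lower, among them Sox18 (-2.29), Robo4 (-2.28), Tal1 (-1.86) and Lyl1 (-1.58), while Pecam1 and Tek were higher. Of 21 matrix metalloproteinases 5 were lower and none higher. Called genes lay next to each other in the reference annotation in 211 pairs, of which 155 had the same direction and 56 opposite directions. The share over all neighbouring genes was not counted, so these numbers do not show that called genes lie together. Some pairs are close copies that may share signal, such as Mt1 and Mt2 or Oas1a and Oas1d.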
